A study of Homo sapiens with 8 samples.

Results

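The actin cytoskeleton and serum response factor (SRF) gene set comprised 35 genes, taken from the deposited tables by gene symbol, and covered actins, actin-binding proteins, focal adhesion proteins, *SRF* itself and known targets of SRF and its MRTF coactivators. Of the 35 genes, 33 had a row among the 19770 genes of each table, and *ACTG2* and *MYL9* are not analysed here. The RNA came from HEK293T, an established human embryonic kidney cell line, in 4 groups of 2 libraries each, collected at 72 h post-transfection. Every group received 125 ng of a gRNA pool for *HBG1* and *HBG2*, the fetal globin genes, so the control also carried a guided dCas9. The control was dCas9 with MCP-mCherry, in which the MS2 coat protein carries a fluorescent protein and no activator. CRISPR-DREAM was dCas9 with MCP-MSN, whose MSN module includes a transactivation domain of MRTF-A. The SAM system (SAM) was dCas9-VP64 with MCP-p65-HSF1. These groups used MS2-modified gRNAs and 187.5 ng of each of their plasmids, whereas dCas9-VPR, a direct fusion, used 375 ng of its plasmid and gRNAs not labelled MS2. The total of effector plasmid was the same in all groups. Its division between plasmids, the gRNA form and the activator therefore cannot be told apart in comparisons with dCas9-VPR. Cells were transfected transiently, and the libraries average transfected and untransfected cells. The labels do not say whether the libraries of a group came from separate cultures, so p-values measure the spread between these libraries, which may be technical.

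SRF is a transcription factor that binds a DNA element called the CArG box. Its coactivators MRTF-A and MRTF-B are held in the cytoplasm by monomeric actin, and actin polymerisation frees them to enter the nucleus, so actin assembly and the transcription of actin and adhesion genes are coupled. Several targets are shared with the YAP/TAZ and TEAD pathway, which also responds to cell tension and shape. HEK293T cells are adherent and make cytoplasmic actins at high levels, whereas calponin 1, transgelin and smooth muscle actin are best known from contractile cells.

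The authors deposited CPM, read abundances scaled to a common library total, with 0.0001 CPM added to every value, and no read counts. From the steps between low values the depth was estimated at 28.4 to 35.1 M reads per library, so that 3 reads were worth 0.0855 to 0.106 CPM. *HBG2*, the guided gene, was between 0.838 and 1.29 CPM in the control, between 2187 and 2874 CPM with CRISPR-DREAM, between 707 and 860 CPM with SAM and between 201 and 218 CPM with dCas9-VPR. All 8 markers listed for HEK293 cells averaged over 1 CPM, with summed levels of 533 to 694 CPM over the libraries. The sum hides moves of single markers, *KRT8* and *VIM* among them, which are given below. In the test described below, 3 rose and 2 fell with CRISPR-DREAM, 5 rose and 2 fell with SAM, and 2 rose and 0 fell with dCas9-VPR. These are 62.5%, 87.5% and 25% of the markers, beside 28%, 44.6% and 17.6% of all genes tested. The summed level of the smooth muscle markers, 5 of 6 in the tables, was 9.03 and 10.2 CPM in the control and 13.2 to 17.6 CPM in the other libraries. Of its 3 tested markers, *CNN1* and *DES* rose with each system, where 18.8%, 35.7% and 11% of all genes rose. The log2 fold change of the third was -0.15 with CRISPR-DREAM, 0.09 with SAM and 0.05 with dCas9-VPR, and it was not called. The most specific marker of this list, *MYH11*, measured 0.0654 and 0.0669 CPM in the control and 0.0964 to 0.382 CPM in the other 6 libraries. These values are below the filter used for testing, and the part of this list in the results for *ACTA2* and *CNN1* was not tested. The fibroblast markers, 6 of 8 in the tables, summed to 17.1 and 17.7 CPM in the control, 15.7 and 17.1 CPM with CRISPR-DREAM, 24.0 and 23.8 CPM with SAM, and 19.3 and 22.3 CPM with dCas9-VPR, and their part in the results, that of *CCN2* with SAM included, was not tested. In bulk RNA, fewer cells of a kind and less RNA per cell cannot be told apart.

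Promoter sequences of 30 of the 33 genes were found in the RefSeq table for GRCh38.p14, which gives 250 bases before and 50 bases after each annotated start. A CArG box was present in at least 1 window of 10 of these 30 genes (33.3%), compared with 1.6% of all genes in the table, and in 12 of 61 member windows (19.7%), compared with 1.29% of all windows. The 10 genes were *ACTG1*, *ACTN1*, *CNN2*, *FHL1*, *FHL2*, *FLNA*, *SRF*, *TES*, *TGFB1I1* and *TPM4*. Every box counted began with CC, ended with GG and held only A or T between them. Boxes that depart from this form were not counted, so a gene missing from this list may still hold one. The set was chosen to include known targets of SRF, so its higher share is no separate result. The following windows, shown as examples for 4 genes called in at least 1 comparison with the control and for *SRF* itself, are written 5′ to 3′ on the strand of the gene, with CArG boxes in capitals.
*ACTG1*, chr17:81512874-81512903, box at -94 from the start: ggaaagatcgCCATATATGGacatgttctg
*CNN2*, chr19:1026509-1026538, box at -89: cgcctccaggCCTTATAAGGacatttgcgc
*FLNA*, chrX:154374709-154374738, box at -94: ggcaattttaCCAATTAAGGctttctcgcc
*TES*, chr7:116222703-116222732, box at -242: acacaagaCCAAATTAGGaatggttgccat
*SRF*, chr6:43171239-43171268, boxes at -30 and -10: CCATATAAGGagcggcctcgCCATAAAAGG
Positions are counted from an annotated start, and a gene can have several. The windows of *ACTG1* and *TES* lie inside the gene spans given below and not at the outer start of the gene. These letters are a description of the window and do not show that SRF was bound there in these cells.

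The TEAD recognition motif GGAATG, searched on both strands so that CATTCC also counted, was present in at least 1 window of 14 of the 30 genes (46.7%), compared with 16.7% of all genes in the table, and in 24.6% of member windows compared with 14.0% of all windows. The set includes known shared targets of SRF and TEAD, so its higher share is no separate result. Its 30 genes also had 61 windows, where the 27305 genes of the table had 35116. The motif is shown for the genes known as shared targets of SRF and TEAD, because these genes differed among themselves in the data, with the motif in capitals.
*CCN2*, chr6:131951454-131951483, motifs at -104 and -95: gtggggaGGAATGcgaGGAATGtccctgtt
*CCN2*, chr6:131951519-131951548, motif at -169: agacggaGGAATGctgagtgtcaaggggtc
*ANKRD1*, chr10:90921193-90921222, motif at -128: tgagtctGGAATGaaaattcacctgcctct
*ANKRD1*, chr10:90921285-90921314, motif at -220: caccaaaGGAATGgccctctcacatttctt
*AMOTL2*, chr3:134374494-134374523, motif at -69 on the opposite strand: actctcaCATTCCtggcatagcagccgcct
The *AMOTL2* window also lies inside the span of its gene. The promoters of *ACTB*, *TAGLN* and *CCN1* were not matched in the table.

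The 33 genes spanned a wide range of levels. Per kilobase of their representative transcript, the mean over the 8 libraries was 1250 CPM per kb for *ACTG1*, 733 for *PFN1*, 732 for *ACTB* and 410 for *CFL1*, which are the cytoplasmic actins and the proteins that bind and recycle their monomers. *FHL1* followed at 109 CPM per kb. At the other end *CNN1* averaged 1.93, *TAGLN* 0.533, *TPM2* 0.502 and *THBS1* 0.0276 CPM per kb. *TPM2*, a tropomyosin, was between 0.385 and 0.878 CPM, and *THBS1*, a secreted matrix protein, was between 0.0653 and 0.398 CPM. Both stayed below the filter of 1 CPM in at least 2 libraries, so 31 genes were tested. Together the 33 genes made up 0.642% ± 0.027 (SD, n = 2) of all CPM in the control, 0.610% ± 0.011 with CRISPR-DREAM, 0.589% ± 0.0049 with SAM and 0.735% ± 0.0036 with dCas9-VPR, sums that are set mainly by *ACTG1* and *ACTB*. The plot of all members by library shows that most genes kept within 0.5 of the control on the log2 scale.

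**Figure D1:**
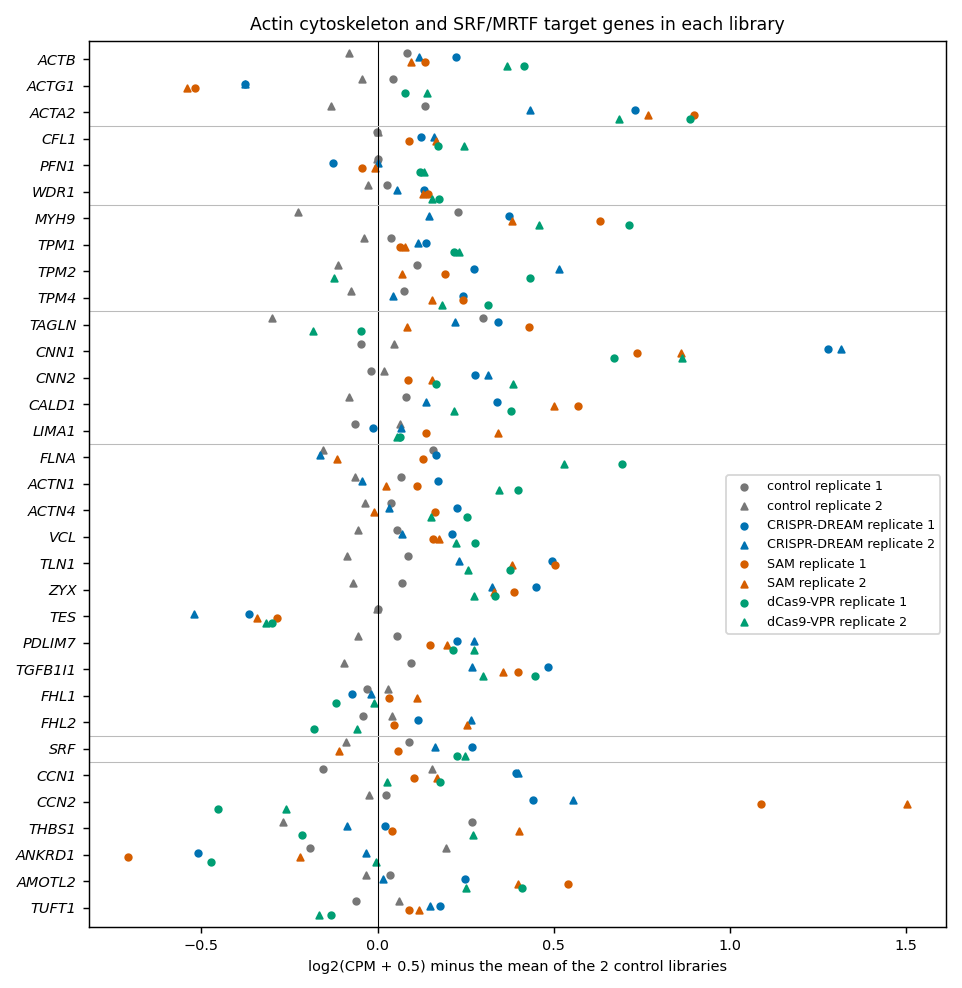
Each row is a gene of the set that is in the tables, and each point is 1 library, placed by log2(CPM + 0.5) minus the mean of the 2 control libraries. Circles are replicate 1 and triangles replicate 2 of each group, and grey lines separate functional groups. *CNN1* and *CCN2* reach farthest to the right, *ACTG1* and *TES* lie to the left of the control with CRISPR-DREAM and SAM, and *TPM2* and *THBS1* are drawn although they were not tested.

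Each system was first compared with the control, gene by gene, using limma on log2(CPM + 0.5) in a fit of all 8 libraries and 15122 genes. The scale understates changes of genes with low values. Genes are said to have risen or fallen at an adjusted p below 0.05. With CRISPR-DREAM 8 of the 31 genes rose, where 18.8% of all genes tested rose, and 2 fell, where 9.25% of all genes fell. With SAM 10 rose, where 35.7% of all genes rose, and 2 fell, where 8.89% of all genes fell. With dCas9-VPR 14 rose, where 11% of all genes rose, and 1 fell, where 6.68% of all genes fell. The called share of the 31 genes was 32.3%, 38.7% and 48.4%, respectively, beside 28%, 44.6% and 17.6% of all genes. The median log2 fold change of the 31 genes was 0.16 with CRISPR-DREAM, 0.14 with SAM and 0.24 with dCas9-VPR, and the medians of all genes were 0.06, 0.16 and 0.06. The 3 comparisons share the control libraries, so their values are given side by side and their likeness is no separate result.

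The counts depended on scaling. When CPM values were rescaled by median of ratios, which centres the typical gene, the median of all genes with SAM moved from 0.16 to -0.01, and that of the 31 members turned from 0.14 to -0.04. Under that scaling 4 members rose and 2 fell with CRISPR-DREAM, 7 rose and 4 fell with SAM, and 8 rose and 1 fell with dCas9-VPR, beside 13.8% and 14.4%, 18% and 21.2%, and 8.14% and 8.96% of all genes rising and falling. With a replicate block, described below, 20 members passed with CRISPR-DREAM, 19 with SAM and 24 with dCas9-VPR. The shares of all genes that passed were then 44.7%, 58.1% and 37.5%. The counts also changed when single libraries were left out, with fewer genes rising with CRISPR-DREAM and dCas9-VPR without control replicate 2. Fewer also rose with dCas9-VPR without any dCas9-VPR or SAM library. In some of the other fits without 1 library more members rose, and this held for each system. The share of all genes passing in these fits is not given, so these changes are no result about the members. At the threshold of the study's methods, a fold change above 2 with the same adjusted p, 1 member passed with CRISPR-DREAM (*CNN1*), where 2.55% of all genes passed, 1 with SAM (*CCN2*), where 4.34% passed, and 0 with dCas9-VPR, where 1.1% passed.

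**Figure D2:**
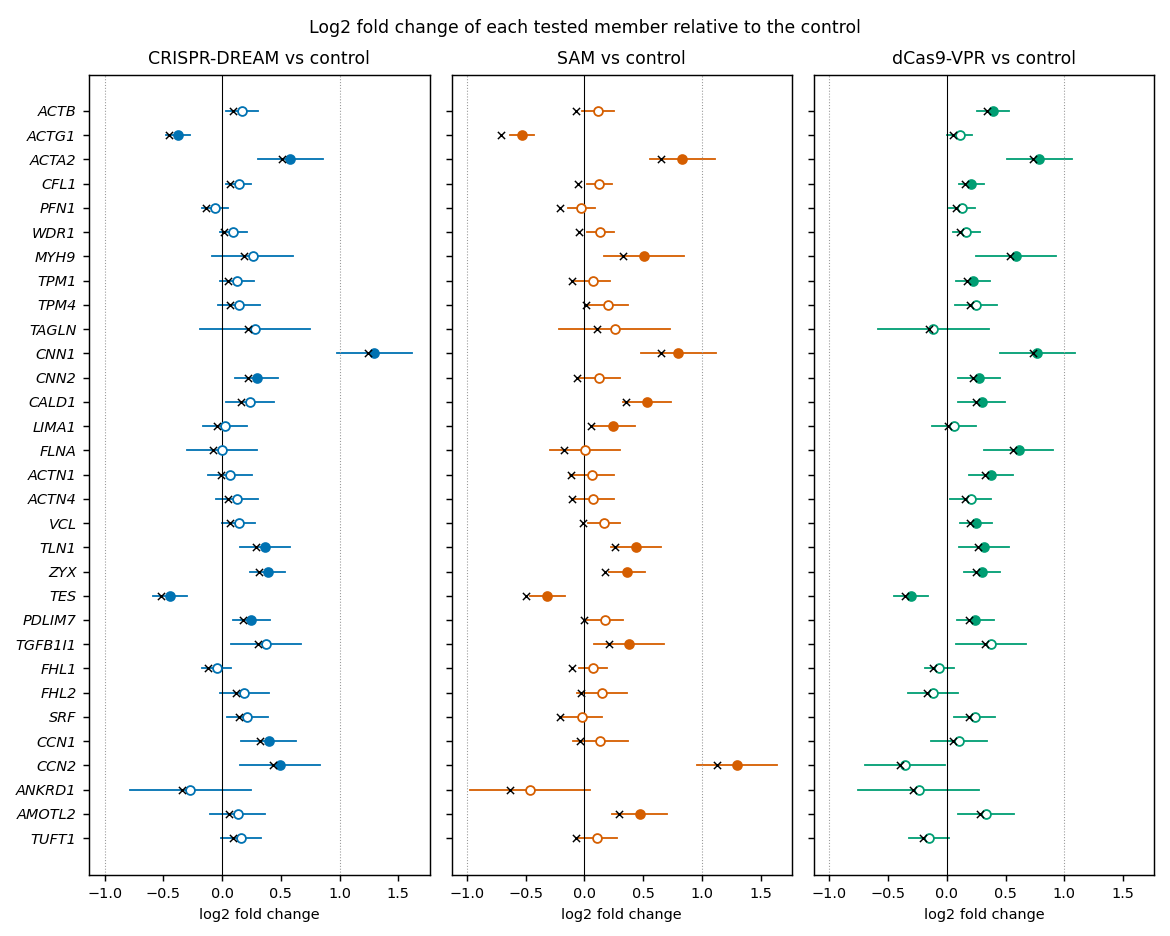
The log2 fold change of the 31 tested genes relative to the control is shown for CRISPR-DREAM, SAM and dCas9-VPR. Filled points passed an adjusted p of 0.05 in limma, open points did not, bars are 95% confidence intervals, crosses are values after median-of-ratios scaling and dotted lines mark a fold change of 2. Most crosses of SAM lie to the left of their points, and *CNN1* with CRISPR-DREAM and *CCN2* with SAM lie beyond the dotted line.

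Among the actins, *ACTG1* and *ACTB*, which encode cytoplasmic gamma- and beta-actin, moved differently. *ACTG1* (chromosome 17, 81509971 to 81523847 on hg38) measured 2793 and 2629 CPM in the control, 2087 and 2088 CPM with CRISPR-DREAM, 1890.2 and 1863 CPM with SAM, and 2857 and 2984 CPM with dCas9-VPR. The 4 libraries of CRISPR-DREAM and SAM were all below the lowest control library, and those of dCas9-VPR were above the highest. The gene fell by 0.38 on the log2 scale with CRISPR-DREAM (SE 0.05, limma adjusted p = 0.000313) and by 0.53 with SAM (SE 0.05, limma adjusted p = 3.91e-05), while the value for dCas9-VPR was 0.11 (limma adjusted p = 0.132). Leaving out any library kept both calls, as did median-of-ratios scaling. *ACTB* (chromosome 7, 5526409 to 5563902) measured 1243 and 1109 CPM in the control, 1371 and 1274 CPM with CRISPR-DREAM, 1289 and 1253 CPM with SAM, and 1567 and 1514 CPM with dCas9-VPR. All 6 activator libraries exceeded both control libraries, but the gene passed the test only with dCas9-VPR, where it rose by 0.39 (SE 0.06, limma adjusted p = 0.00285), and this call held without any library. The CRISPR-DREAM value was 0.17 (limma adjusted p = 0.0586) and the SAM value 0.11 (limma adjusted p = 0.15), the latter changing sign under median-of-ratios scaling, to -0.07.

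The balance between the cytoplasmic actins does not depend on library scaling. The *ACTG1* share of the summed *ACTG1* and *ACTB* CPM was 69.2% and 70.3% in the control, 60.4% and 62.1% with CRISPR-DREAM, 59.5% and 59.8% with SAM and 64.6% and 66.3% with dCas9-VPR. The control libraries were above all others and those of dCas9-VPR were next, while CRISPR-DREAM and SAM lay lowest and closer to each other than the CRISPR-DREAM libraries were among themselves. With 2 libraries a group an exact permutation test cannot give a p below 0.333, so this order is a description. The coding sequences of *ACTB* and *ACTG1* are identical at 91.3% of 1125 positions, with a longest identical run of 59 bases, shorter than the 75-base reads. How the authors' quantification divided reads between these genes is not given in the sources used here, so the levels of both are uncertain to that extent.

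*ACTA2*, smooth muscle alpha-actin (chromosome 10, 88935074 to 88991339), measured 19.9 and 16.5 CPM in the control, 30.4 and 24.6 CPM with CRISPR-DREAM, 34.1 and 31.2 CPM with SAM, and 33.8 and 29.4 CPM with dCas9-VPR. All activator libraries were above both controls. It rose by 0.58 with CRISPR-DREAM (SE 0.12, limma adjusted p = 0.00674), by 0.83 with SAM (SE 0.12, limma adjusted p = 0.000631) and by 0.78 with dCas9-VPR (SE 0.12, limma adjusted p = 0.00339). The first call was lost without control replicate 2, at 0.45 (limma adjusted p = 0.0629), and the others held without any library. The annotated span of *ACTA2* overlaps *FAS* and *STAMBPL1* on the opposite strand. *FAS* measured 8.98 and 7.98 CPM in the control and 5.18 and 5.20 CPM with CRISPR-DREAM. With SAM it was higher than in the control, at 9.94 and 9.33 CPM, and with dCas9-VPR it measured 6.31 and 6.10 CPM. *STAMBPL1* stayed between 5.32 and 8.27 CPM in all libraries. The libraries were made with a stranded kit, the deposited values are not stated to use strand, and 11 of the 33 genes overlap a gene on the opposite strand.

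**Figure D3:**
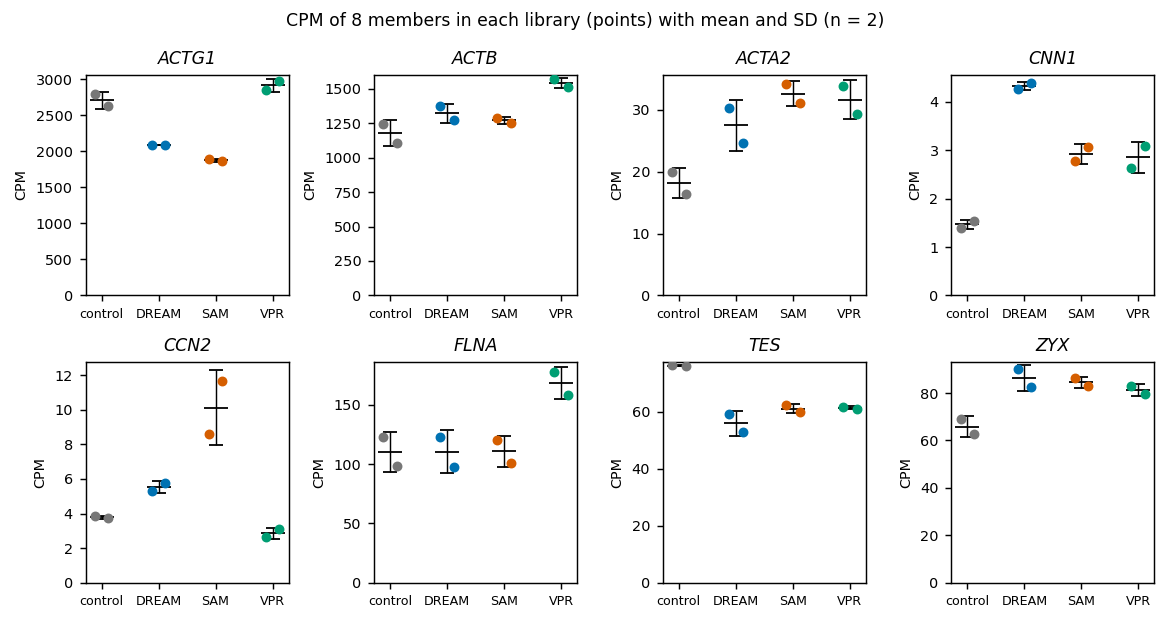
CPM of 8 genes of the set in each library (points) with the mean and SD of the 2 libraries (bars), for the control, CRISPR-DREAM (DREAM), SAM and dCas9-VPR (VPR), with all axes starting at 0. *ACTG1* is lowest with CRISPR-DREAM and SAM, *CNN1* is above 4 CPM only with CRISPR-DREAM, *CCN2* is above 8 CPM only with SAM and *FLNA* is above 150 CPM only with dCas9-VPR.

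The proteins that turn actin over changed little. *CFL1*, cofilin, which severs filaments, measured 468 and 470 CPM in the control compared with 528 and 556 CPM with dCas9-VPR, where it rose by 0.21 (SE 0.05, limma adjusted p = 0.0163). That call was lost without any of the control or dCas9-VPR libraries, at 0.17 to 0.24, and under median-of-ratios scaling, at 0.16. With CRISPR-DREAM *CFL1* was at 511 and 524 CPM and with SAM at 499 and 526 CPM, above both controls but not past the test. *PFN1*, profilin, which feeds monomers to growing filaments, ranged from 538 to 643 CPM and passed in none of the comparisons with the control, although it fell with SAM under median-of-ratios scaling, by 0.21. *WDR1*, a cofactor of cofilin, ranged from 126 to 145 CPM and passed in none.

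Of the motor and its filament partners, *MYH9*, the heavy chain of non-muscle myosin IIA, measured 48.3 and 35.1 CPM in the control, 53.5 and 45.6 CPM with CRISPR-DREAM, 64.1 and 53.8 CPM with SAM, and 67.8 and 56.7 CPM with dCas9-VPR. Replicate 2 was below replicate 1 in each group, and only the SAM and dCas9-VPR libraries were all above the higher control. *MYH9* rose by 0.51 with SAM (SE 0.15, limma adjusted p = 0.0225) and by 0.59 with dCas9-VPR (SE 0.15, limma adjusted p = 0.0288). Without control replicate 2 these values were 0.28 (limma adjusted p = 0.169) and 0.36 (limma adjusted p = 0.195). The SAM call was also lost without SAM replicate 1, at 0.38, without CRISPR-DREAM replicate 2, at 0.51, and under median-of-ratios scaling, at 0.33, and the dCas9-VPR call without either CRISPR-DREAM library, at 0.59, or either dCas9-VPR library, at 0.46 and 0.71. The tropomyosins, which line actin filaments, moved less. *TPM1* measured 34.2 and 32.4 CPM in the control, 36.6 and 36.1 CPM with CRISPR-DREAM, 34.8 and 35.1 CPM with SAM, and 38.7 and 39.1 CPM with dCas9-VPR, where it rose by 0.22 (SE 0.07, limma adjusted p = 0.0433). That call was lost in 6 of 8 fits without 1 library, namely any control, SAM or dCas9-VPR library, at 0.18 to 0.26, and under median-of-ratios scaling. *TPM4* ranged from 136 to 179 CPM and did not pass in any of the comparisons.

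*CNN1*, calponin 1, an actin-binding regulator of smooth muscle contraction (chromosome 19, 11538767 to 11550323), gave the largest log2 fold change of the 31 genes with CRISPR-DREAM. It measured 1.40 and 1.53 CPM in the control, 4.27 and 4.39 CPM with CRISPR-DREAM, 2.77 and 3.07 CPM with SAM, and 2.63 and 3.08 CPM with dCas9-VPR. The control libraries were lowest and the CRISPR-DREAM libraries highest, and the SAM and dCas9-VPR libraries overlapped each other. On the log2 scale it rose by 1.30 with CRISPR-DREAM (SE 0.14, limma adjusted p = 0.000167), by 0.80 with SAM (SE 0.14, limma adjusted p = 0.0016) and by 0.77 with dCas9-VPR (SE 0.14, limma adjusted p = 0.00674). The dCas9-VPR call was lost without dCas9-VPR replicate 2, at 0.67 (limma adjusted p = 0.0665), and the others held without any library. Relative to *CNN2*, a ratio that is free of library scaling, *CNN1* was at 0.0447 and 0.0476 in the control, 0.110 and 0.111 with CRISPR-DREAM, 0.0821 and 0.0866 with SAM, and 0.0737 and 0.0740 with dCas9-VPR.

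The other calponin family and actin-regulating genes changed by smaller amounts. *CNN2*, calponin 2, measured 31.4 and 32.2 CPM in the control, 38.7 and 39.6 CPM with CRISPR-DREAM, 33.8 and 35.5 CPM with SAM, and 35.7 and 41.6 CPM with dCas9-VPR. It rose by 0.29 with CRISPR-DREAM (SE 0.08, limma adjusted p = 0.0226) and by 0.27 with dCas9-VPR (SE 0.08, limma adjusted p = 0.0438), and neither call held under median-of-ratios scaling, at 0.22 each. The CRISPR-DREAM call was lost without either control library or CRISPR-DREAM replicate 2, at 0.28 to 0.31, and that of dCas9-VPR without any control, SAM or dCas9-VPR library, at 0.16 to 0.38. *CALD1*, caldesmon, which holds back myosin on thin filaments, measured 37.6 and 33.6 CPM in the control, 45.1 and 39.2 CPM with CRISPR-DREAM, 52.9 and 50.5 CPM with SAM, and 46.3 and 41.4 CPM with dCas9-VPR. The SAM libraries were above all others. It rose by 0.53 with SAM (SE 0.09, limma adjusted p = 0.00119), a call that held without any library, and by 0.30 with dCas9-VPR (SE 0.09, limma adjusted p = 0.0481), a call lost without any control, SAM or dCas9-VPR library, at 0.22 to 0.38, and under median-of-ratios scaling, at 0.25. *LIMA1*, a bundling protein also called EPLIN, measured 33.4 and 36.5 CPM in the control compared with 38.5 and 44.4 CPM with SAM, where it rose by 0.24 (SE 0.08, limma adjusted p = 0.0398). Median-of-ratios scaling reduced this to 0.06, and the call was lost without either control library, SAM replicate 2 or either dCas9-VPR library, at 0.14 to 0.30. *LIMA1* stayed at 34.6 and 36.6 CPM with CRISPR-DREAM and at 36.5 and 36.3 CPM with dCas9-VPR. *TAGLN*, transgelin, ranged from 1.37 to 2.61 CPM and did not pass relative to the control.

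Of the actin crosslinkers, *FLNA* and *ACTN1* rose with dCas9-VPR and passed with neither of the other systems. *FLNA*, filamin A, which crosslinks actin into networks (chromosome X, 154348524 to 154374634), measured 122 and 98.6 CPM in the control, 123 and 98.0 CPM with CRISPR-DREAM, 120.2 and 101 CPM with SAM, and 178 and 159 CPM with dCas9-VPR. The first 3 groups overlapped almost completely, and both dCas9-VPR libraries lay above them. The log2 fold change was 0.00 with CRISPR-DREAM (95% confidence interval -0.30 to 0.30), 0.01 with SAM (-0.29 to 0.30) and 0.61 with dCas9-VPR (SE 0.13, limma adjusted p = 0.0143). That call was lost without control replicate 2, at 0.45 (limma adjusted p = 0.111), and without dCas9-VPR replicate 1, at 0.53 (limma adjusted p = 0.106). *ACTN1*, alpha-actinin 1, which also crosslinks actin, measured 43.4 and 39.5 CPM in the control, 46.7 and 40.1 CPM with CRISPR-DREAM, 44.7 and 42.1 CPM with SAM, and 54.8 and 52.8 CPM with dCas9-VPR. It rose with dCas9-VPR by 0.37 (SE 0.08, limma adjusted p = 0.0151), a call lost without control replicate 2, at 0.31, or either dCas9-VPR library, at 0.35 and 0.40. *ACTN4*, its close relative, ranged from 88.9 to 109 CPM and did not pass.

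Among proteins that tie actin to integrins, *TLN1*, talin 1, the activator of integrins, measured 68.3 and 60.5 CPM in the control, 90.8 and 75.5 CPM with CRISPR-DREAM, 91.4 and 83.8 CPM with SAM, and 83.5 and 76.8 CPM with dCas9-VPR. It rose by 0.36 (SE 0.10, limma adjusted p = 0.0184), 0.44 (SE 0.10, limma adjusted p = 0.00455) and 0.32 (SE 0.10, limma adjusted p = 0.0470), respectively. *ZYX*, zyxin, a mechanosensitive LIM protein (chromosome 7, 143381295 to 143391111), measured 69.1 and 62.7 CPM in the control, 90.1 and 82.4 CPM with CRISPR-DREAM, 86.2 and 82.8 CPM with SAM, and 83.0 and 79.6 CPM with dCas9-VPR. It rose by 0.39 (SE 0.07, limma adjusted p = 0.00246), 0.36 (SE 0.07, limma adjusted p = 0.00229) and 0.30 (SE 0.07, limma adjusted p = 0.0154). For both genes every activator library was above both controls. The SAM calls of both genes and the CRISPR-DREAM call of *ZYX* held without any library. That of *TLN1* with CRISPR-DREAM was lost without control replicate 2, at 0.28, or CRISPR-DREAM replicate 1, at 0.23. With dCas9-VPR, *ZYX* was lost without control replicate 2 or either dCas9-VPR library, at 0.23 to 0.33, and *TLN1* without these or either SAM library, at 0.23 to 0.38, and under median-of-ratios scaling, at 0.26.

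*TES*, testin, a LIM protein of focal adhesions that binds zyxin (chromosome 7, 116210506 to 116258783), moved the other way. It measured 76.3 and 76.1 CPM in the control, 59.1 and 53.0 CPM with CRISPR-DREAM, 62.4 and 60.0 CPM with SAM, and 61.8 and 61.1 CPM with dCas9-VPR. All 6 activator libraries were below both controls. It fell by 0.44 with CRISPR-DREAM (SE 0.07, limma adjusted p = 0.000925), by 0.32 with SAM (SE 0.07, limma adjusted p = 0.00357) and by 0.31 with dCas9-VPR (SE 0.07, limma adjusted p = 0.0122), and median-of-ratios scaling kept all 3 calls, with falls of 0.52, 0.50 and 0.36. The dCas9-VPR call was lost without any control or dCas9-VPR library, at -0.32 to -0.30, and the others held. The window printed for *TES*, which lies inside this gene span, holds a CArG box that overlaps a GGAATG motif.

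The remaining adhesion genes gave small or no changes. *VCL*, vinculin, measured 118 and 109 CPM in the control, 131 and 119 CPM with CRISPR-DREAM, 126 and 128 CPM with SAM, and 137 and 132 CPM with dCas9-VPR, where it rose by 0.25 (SE 0.06, limma adjusted p = 0.0239), a call lost without control replicate 2 or either dCas9-VPR library, at 0.19 to 0.28. *PDLIM7*, a PDZ and LIM scaffold, measured 34.6 and 32.0 CPM in the control, 39.0 and 40.3 CPM with CRISPR-DREAM, 37.0 and 38.2 CPM with SAM, and 38.7 and 40.3 CPM with dCas9-VPR. It rose by 0.25 with CRISPR-DREAM (SE 0.07, limma adjusted p = 0.0242) and by 0.24 with dCas9-VPR (SE 0.07, limma adjusted p = 0.0386), and neither held under median-of-ratios scaling, at 0.18 and 0.19. Its first call was lost without control replicate 2 or CRISPR-DREAM replicate 2, at 0.19 and 0.22, and the other without any control, SAM or dCas9-VPR library, at 0.19 to 0.30. *TGFB1I1*, also called Hic-5, a paxillin relative, measured 4.31 and 3.72 CPM in the control, 5.79 and 4.92 CPM with CRISPR-DREAM, 5.43 and 5.26 CPM with SAM, and 5.64 and 5.04 CPM with dCas9-VPR. It had nearly the same log2 fold change in all 3 systems, 0.37, 0.38 and 0.37, but passed only with SAM (SE 0.13, limma adjusted p = 0.0417), and there the call was lost without control replicate 2 or any SAM or dCas9-VPR library, at 0.28 to 0.40, and under median-of-ratios scaling, at 0.21. *FHL1* and *FHL2*, LIM proteins that act with transcription factors, ranged from 231 to 271 CPM and from 22.1 to 30.2 CPM and passed in none of the comparisons.

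*SRF* itself measured 64.9 and 57.2 CPM in the control, 73.4 and 68.3 CPM with CRISPR-DREAM, 63.5 and 56.5 CPM with SAM, and 71.3 and 72.5 CPM with dCas9-VPR. Both CRISPR-DREAM and both dCas9-VPR libraries were above the controls, and the SAM libraries overlapped them. None of the 3 log2 fold changes passed, at 0.22 with CRISPR-DREAM (95% confidence interval 0.04 to 0.39, limma adjusted p = 0.0678), -0.03 with SAM (-0.20 to 0.15, limma adjusted p = 0.819) and 0.24 with dCas9-VPR (0.06 to 0.41, limma adjusted p = 0.0652). Under median-of-ratios scaling *SRF* fell with SAM, by 0.21 (limma adjusted p = 0.0411).

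The secreted and stretch-induced targets did not move as a group. *CCN2*, connective tissue growth factor, a matricellular protein (chromosome 6, 131948176 to 131951372), measured 3.86 and 3.72 CPM in the control, 5.31 and 5.79 CPM with CRISPR-DREAM, 8.60 and 11.7 CPM with SAM, and 2.63 and 3.08 CPM with dCas9-VPR. The groups did not overlap, with dCas9-VPR lowest and SAM highest. *CCN2* rose by 1.29 with SAM (SE 0.15, limma adjusted p = 0.000182), which held without any library. It rose by 0.50 with CRISPR-DREAM (SE 0.15, limma adjusted p = 0.0349), a call lost without any control or CRISPR-DREAM library, at 0.44 to 0.55, and under median-of-ratios scaling, at 0.43. With dCas9-VPR its value was -0.36 (95% confidence interval -0.70 to -0.02, limma adjusted p = 0.130). *CCN1*, also called CYR61, its relative, measured 16.8 and 20.9 CPM in the control, 24.8 and 24.9 CPM with CRISPR-DREAM, 20.2 and 21.2 CPM with SAM, and 21.3 and 19.1 CPM with dCas9-VPR. It rose only with CRISPR-DREAM, by 0.40 (SE 0.11, limma adjusted p = 0.0198), a call lost without control replicate 1, at 0.24, and under median-of-ratios scaling, at 0.32 (limma adjusted p = 0.0514). The within-library ratio of *CCN2* to *CCN1* was 0.229 and 0.178 in the control, 0.215 and 0.233 with CRISPR-DREAM, 0.426 and 0.551 with SAM, and 0.124 and 0.161 with dCas9-VPR.

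*AMOTL2*, an angiomotin family protein that binds YAP, measured 14.4 and 13.7 CPM in the control, 16.8 and 14.2 CPM with CRISPR-DREAM, 20.6 and 18.7 CPM with SAM, and 18.8 and 16.8 CPM with dCas9-VPR. It rose with SAM by 0.47 (SE 0.11, limma adjusted p = 0.00561), and without SAM replicate 1 the value was 0.40 (limma adjusted p = 0.0529). *ANKRD1*, a stretch-induced ankyrin repeat protein of muscle, measured 6.67 and 8.87 CPM in the control and 5.25 and 7.51 CPM with CRISPR-DREAM. It measured 4.52 and 6.54 CPM with SAM, and 5.41 and 7.67 CPM with dCas9-VPR. Replicate 2 was above replicate 1 in each group, and each activator library was below the control library of the same number. The fit does not use the replicate number, so its intervals include this gap. The lowest log2 fold change of *ANKRD1* was -0.46 with SAM (95% confidence interval -0.98 to 0.05, limma adjusted p = 0.128). *CCN2*, *ANKRD1* and *AMOTL2* all hold GGAATG motifs in the printed windows, and the part of the motif in their values was not tested. *TUFT1*, tuftelin, ranged from 22.1 to 28.2 CPM and did not pass relative to the control.

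The systems were also compared directly. Between CRISPR-DREAM and SAM 1 of the 31 genes passed, where 10.7% of all genes passed and 9.14% were lower with CRISPR-DREAM. This was *CCN2*, lower with CRISPR-DREAM by a log2 difference of -0.80 (SE 0.15, limma adjusted p = 0.0144). Without SAM replicate 2 the difference was -0.59 and the call was lost, and without CRISPR-DREAM replicate 1 more members passed. The other 30 differences lay between -0.34 and 0.50, with 95% confidence intervals reaching from -0.59 to 0.82. *CNN1* was at the top of that range (SE 0.14, limma adjusted p = 0.0517). Under median-of-ratios scaling *CNN1*, *ACTG1* and *SRF* were also called, higher with CRISPR-DREAM by 0.59, 0.26 and 0.35. With that scaling 4 members passed where 8.91% of all genes did. With a replicate block, which is described below, 12 members passed, 5 higher and 7 lower with CRISPR-DREAM, where 30.5% of all genes passed.

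Between CRISPR-DREAM and dCas9-VPR 8 genes passed, where 13.1% of all genes did, 3 of them higher and 5 lower with CRISPR-DREAM, where 7.9% and 5.21% of all genes were. *CCN2* was higher with CRISPR-DREAM by 0.85 (SE 0.15, limma adjusted p = 0.00676), *CNN1* by 0.53 (SE 0.14, limma adjusted p = 0.0378) and *TUFT1* by 0.31 (SE 0.08, limma adjusted p = 0.0247). *FLNA* was lower, at -0.61 (SE 0.13, limma adjusted p = 0.0172), as were *ACTG1* at -0.48 (SE 0.05, limma adjusted p = 0.000376), *ACTN1* at -0.31 (SE 0.08, limma adjusted p = 0.0380), *ACTB* at -0.22 (SE 0.06, limma adjusted p = 0.0388) and *PFN1* at -0.19 (SE 0.05, limma adjusted p = 0.0340). The lower genes were thus actins, an actin monomer binder and crosslinkers. The 8 calls held under median-of-ratios scaling, where 13.8% of all genes passed. Fewer members passed in every fit without 1 library, but such fits have fewer samples and no share of all genes is given for them. *ACTG1* passed in all of these fits, and *CCN2* was lost only without dCas9-VPR replicate 1, at 0.76.

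Between SAM and dCas9-VPR 8 genes passed, where 29.9% of all genes did, 2 of them higher and 6 lower with SAM, where 23.6% and 6.32% of all genes were, and 1 of them exceeded a fold change of 2, where 2.31% of all genes did. *CCN2* was higher with SAM by 1.65 (SE 0.15, limma adjusted p = 0.000163), a 3.14-fold difference, and *TUFT1* by 0.25 (SE 0.08, limma adjusted p = 0.0304). *ACTG1* was lower at -0.64 (SE 0.05, limma adjusted p = 8.23e-05), *FLNA* at -0.60 (SE 0.13, limma adjusted p = 0.00796), *ACTN1* at -0.31 (SE 0.08, limma adjusted p = 0.0203), *ACTB* at -0.28 (SE 0.06, limma adjusted p = 0.00677), *SRF* at -0.26 (SE 0.08, limma adjusted p = 0.0312) and *PFN1* at -0.15 (SE 0.05, limma adjusted p = 0.0426). Under median-of-ratios scaling 13 passed, where 29.6% of all genes did, with *TUFT1* lost and *CFL1*, *WDR1*, *TPM1*, *CNN2*, *ACTN4* and *VCL* also lower with SAM. Fewer members passed without SAM replicate 2 or either dCas9-VPR library, and *ACTG1* and *CCN2* passed in all 8 fits without 1 library.

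The wider pathway was followed in 84 other genes, of which 83 were in the tables and 79 were tested. With CRISPR-DREAM 26 rose and 4 fell, with SAM 36 rose and 4 fell, and with dCas9-VPR 21 rose and 0 fell, with median log2 fold changes of 0.12, 0.20 and 0.18. Of all genes tested, 18.8%, 35.7% and 11% rose and 9.25%, 8.89% and 6.68% fell. Under median-of-ratios scaling 17 pathway genes rose and 9 fell, 13 rose and 11 fell, and 18 rose and 3 fell, beside 13.8% and 14.4%, 18% and 21.2%, and 8.14% and 8.96% of all genes. *MRTFA*, the SRF coactivator from which the MSN module takes a part, measured 29.6 and 26.7 CPM in the control, at 2819 and 2691 CPM with CRISPR-DREAM and between 29.4 and 33.5 CPM with the other systems, and transgene reads cannot be told apart from those of the endogenous gene. *MRTFB*, the other MRTF, measured 10.5 and 10.1 CPM in the control, 13.8 and 8.39 CPM with CRISPR-DREAM, 13.4 and 11.3 CPM with SAM, and 14.7 and 14.8 CPM with dCas9-VPR, and did not pass. *MYOCD*, the muscle-specific coactivator, was between 0.0287 and 0.449 CPM and was not tested.

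Among 26 tested targets of SRF or MRTF outside the set, 7 rose and 2 fell with CRISPR-DREAM, 10 rose and 2 fell with SAM, and 5 rose and 0 fell with dCas9-VPR, beside the same shares of all genes (18.8%, 35.7% and 11% rising). Under median-of-ratios scaling 7 rose and 4 fell, 4 rose and 4 fell, and 5 rose and 2 fell. *ITGA5*, the alpha chain of the fibronectin receptor, which pairs with the talin-bound beta chain, measured 36.7 and 31.8 CPM in the control, 82.9 and 75.2 CPM with CRISPR-DREAM, 75.3 and 70.2 CPM with SAM, and 53.6 and 49.1 CPM with dCas9-VPR. Its log2 fold changes of 1.20 (limma adjusted p = 1.24e-05), 1.08 (limma adjusted p = 2.16e-05) and 0.58 (limma adjusted p = 0.00225) ran in the order CRISPR-DREAM, SAM and dCas9-VPR, and the difference between CRISPR-DREAM and SAM did not pass (95% confidence interval -0.07 to 0.31, limma adjusted p = 0.381). *PARVA*, parvin alpha, an adhesion partner of integrin-linked kinase, rose by 0.90 (limma adjusted p = 0.00105) with CRISPR-DREAM and by 1.05 (limma adjusted p = 0.000324) with SAM, and by 0.52 (limma adjusted p = 0.0257) with dCas9-VPR. *FLNC*, the muscle filamin, rose by 0.70 with CRISPR-DREAM (limma adjusted p = 0.00679) and by 0.71 with SAM (limma adjusted p = 0.00405), and its value with dCas9-VPR was 0.48 (limma adjusted p = 0.0506). *MYH10*, non-muscle myosin IIB, rose by 0.54 with dCas9-VPR (limma adjusted p = 0.0320), and its values with CRISPR-DREAM and SAM were 0.10 (limma adjusted p = 0.646) and 0.33 (limma adjusted p = 0.0946).

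Of 21 actin assembly genes, which include the Arp2/3 complex, capping proteins and thymosins, 11 rose and 1 fell with CRISPR-DREAM, 14 rose and 1 fell with SAM, and 9 rose and 0 fell with dCas9-VPR, and under median-of-ratios scaling the counts were 2 and 2, 5 and 3, and 6 and 0. The shares of all genes that rose were again 18.8%, 35.7% and 11%, and 13.8%, 18% and 8.14% under that scaling. *GSN*, gelsolin, which severs and caps filaments, rose by 0.84 (limma adjusted p = 2.83e-05), 0.83 (limma adjusted p = 3.08e-05) and 0.59 (limma adjusted p = 0.00077). Of 13 YAP/TAZ and TEAD genes, 2 rose with CRISPR-DREAM, 6 with SAM and 1 with dCas9-VPR, and 0 fell, beside the same shares of all genes. Under median-of-ratios scaling 2 rose and 2 fell, 2 rose and 1 fell, and 1 rose and 1 fell. *TEAD3*, a TEAD factor, rose by 0.65 (limma adjusted p = 0.00189) with CRISPR-DREAM and by 0.76 (limma adjusted p = 0.000502) with SAM, and its value with dCas9-VPR was 0.28 (limma adjusted p = 0.103). *WWTR1*, which encodes TAZ, rose by 0.72 with SAM (limma adjusted p = 0.000279) and by 0.41 with CRISPR-DREAM (limma adjusted p = 0.00851), and its value with dCas9-VPR was 0.24 (limma adjusted p = 0.0977).

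**Figure D4:**
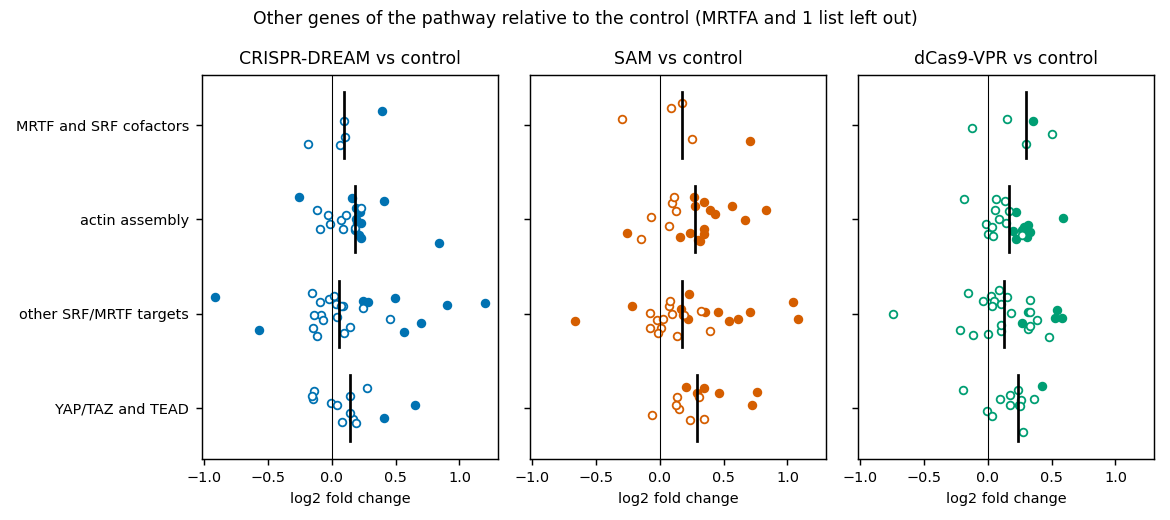
Each point is a tested gene of the wider pathway outside the 35 genes, by its log2 fold change relative to the control (x axis) and its list (y axis, with random vertical scatter), for each system. Filled points passed an adjusted p of 0.05 in limma, open points did not, black bars are list medians, and *MRTFA* and 1 list of 13 genes are left out. The filled points lie mainly to the right of 0, at most 1.20 on the log2 scale.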

How the data were processed

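RNA-seq values of 8 HEK293T libraries were used. Per the labels and methods, the authors aligned 75-base paired reads with STAR 2.7.3a to hg38 with Gencode release 36, quantified transcripts by a Bayesian approach, used DESeq2 for their own tests and deposited CPM per gene. The labels give polyA RNA, whereas the kit named is a stranded one for total RNA, and use of strand in the quantification is not given in the sources used here. Between 65.7% and 70.7% of low values were whole multiples of 1 read (tolerance 0.05 reads), so reads were not recovered. Log2(CPM + 0.5) was fitted with limma 3.58.1 (trend, robust, 4 residual degrees of freedom, R 4.3.3) over all 8 libraries, with 6 contrasts, for genes reaching 1 CPM in 2 or more libraries, with Benjamini-Hochberg adjustment over all 15122 genes. The fit was tested on simulated data. Groups and replicate numbers came from the sample labels. The members and lists were chosen with earlier results of these data known. Per-library values are given for members called relative to the control, and up to 5 pathway genes per comparison were named by size of change among those called with a mean of at least 10 CPM. Alternatives were median-of-ratios scaling, no filter, pseudocounts of 0.1 and 1, a replicate block and leaving out each library. Transcript lengths and coding sequences came from Gencode release 44. Some results are not reported here.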

Additional observations from a re-analysis of the deposited data

How the results depend on the processing

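Under median-of-ratios scaling 4 members rose and 2 fell with CRISPR-DREAM, where 13.8% and 14.4% of all genes did. With SAM 7 rose and 4 fell, where 18% and 21.2% did, and with dCas9-VPR 8 rose and 1 fell, where 8.14% and 8.96% did. Between CRISPR-DREAM and SAM 4 differed, where 8.91% of all genes did, and between SAM and dCas9-VPR 13 differed, where 29.6% did. The median of the members with SAM turned to -0.0425. With a pseudocount of 1 the count between CRISPR-DREAM and SAM also moved, and no share of all genes is given for it. The cause of these moves was not tested. Fits without each library gave 3 to 10 rising and 2 falling members with CRISPR-DREAM, 7 to 14 rising and 2 falling with SAM, and 3 to 19 rising and 0 to 1 falling with dCas9-VPR. Between systems they gave 0 to 3 for CRISPR-DREAM and SAM, 1 to 7 for CRISPR-DREAM and dCas9-VPR, and 2 to 10 for SAM and dCas9-VPR, and such fits have fewer samples. With a replicate block 18 members rose with CRISPR-DREAM, 16 with SAM and 22 with dCas9-VPR, 2 fell with dCas9-VPR, and 12, 12 and 15 differed between CRISPR-DREAM and SAM, CRISPR-DREAM and dCas9-VPR, and SAM and dCas9-VPR, while 44.7%, 58.1% and 37.5% of all genes passed relative to the control and 30.5%, 29.7% and 45.6% between systems. Replicate numbers share deviations, with a positive correlation of 0.133 to 0.326 over 6 pairs of groups and 15122 genes. The labels do not say what a number marks, such as a shared day, so the source of these deviations is unknown. The main fit does not use the replicate number, and its spread includes them. Of 57 called gene results (*MRTFA* included), 43 stayed past the threshold under median-of-ratios scaling, 53 with no filter, 57 with either pseudocount and with the block, and 30 to 51 without 1 library, with 0 reversed. With 2 libraries a group and 3 reads worth up to 0.106 CPM, *THBS1* and *TPM2* lay too low to be tested.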

Other observations

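Some intermediate filament genes of the marker lists also differed from the control, and these genes were chosen after their values were seen. *DES* is on the smooth muscle list, and *KRT8* and *VIM* are on the HEK293 list. The HEK293 list also holds *KRT18*, *NEFM* and *INA*, which are not given here. Its lowest log2 fold change with CRISPR-DREAM was -0.54, below that of *VIM*. *DES*, desmin, the intermediate filament protein of muscle, measured 0.479 and 0.554 CPM in the control, 4.65 and 6.53 CPM with CRISPR-DREAM, 3.83 and 4.92 CPM with SAM, and 2.20 and 3.18 CPM with dCas9-VPR, with log2 fold changes of 2.57, 2.25 and 1.63 (limma adjusted p = 2.27e-05, 4.66e-05 and 0.00108). *KRT8*, a keratin of simple epithelia, measured 50.2 and 45.2 CPM in the control, 113 and 107 CPM with CRISPR-DREAM, 105 and 95.1 CPM with SAM, and 92.1 and 78.5 CPM with dCas9-VPR, with log2 fold changes of 1.20, 1.06 and 0.83 (limma adjusted p = 1.31e-05, 2.45e-05 and 0.000375). Intermediate filaments are a part of the cytoskeleton distinct from actin. All 6 activator libraries were above both control libraries for *DES* and for *KRT8*. *VIM*, vimentin, another intermediate filament protein, measured 396 and 344 CPM in the control, 318 and 267 CPM with CRISPR-DREAM, 330 and 276 CPM with SAM, and 440 and 411 CPM with dCas9-VPR. It fell by 0.34 with CRISPR-DREAM (limma adjusted p = 0.0368) and by 0.29 with SAM (limma adjusted p = 0.0483), and its value with dCas9-VPR was 0.20 (limma adjusted p = 0.201).

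The replicates of each group were also compared among the well-expressed members. Of 26 members with a mean of at least 10 CPM, 19 were lower in replicate 2 of the control, 17 with CRISPR-DREAM, 15 with SAM and 17 with dCas9-VPR. The share of all genes at that level that were lower in replicate 2 is not given, so these counts are no result about the members. The standard deviation of their log2 difference between replicates was 0.111 to 0.153, beside 0.115 to 0.172 for all 9799 genes at that level.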
